A study of Mus musculus with 14 samples.

Results

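C1q-like proteins and cerebellins are secreted organizers of synapses. The 7 genes described here are C1ql1, C1ql2, C1ql3, C1ql4, Cbln1, Cbln2 and Cbln4. They were chosen by name from the 31054 features of single-cell RNA-seq libraries of the mouse hindbrain. The cells were tdTomato-positive cells of the Atoh1 lineage, the excitatory neurons that arise from the rhombic lip and include pontine nuclei (PN) neurons, granule cells, unipolar brush cells and neurons of the cerebellar nuclei.

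There were 14 libraries. At E14.5 and at E18.5, 3 control embryos (Atoh1Cre/+; Rosa lsl-tdTomato/+) and 3 Atoh1S193A/- embryos (Atoh1Cre/S193A; Rosa lsl-tdTomato/+) each gave 1 library of whole hindbrain, every mutant with a littermate control. S193A replaces a serine of the ATOH1 protein with alanine and gives a hypomorphic allele. Cre sits in place of 1 Atoh1 copy, so the controls also carried 1 null Atoh1 allele. At P5, 2 control libraries were made from dissected PN, each pooled from several pups. All animals were C57BL/6J and all cells were sorted as tdTomato-positive and DAPI-negative, so only cells with a history of Atoh1Cre recombination were meant to be in the sort.

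C1q-like proteins bind the adhesion receptor ADGRB3 (BAI3). C1QL1 is known as the climbing fibre signal that shapes synapses on Purkinje cells, and C1QL2 and C1QL3 as proteins of hippocampal mossy fibres that gather kainate receptors with neurexin 3. Cerebellins bind neurexins on the axon and link them to receptors across the synapse. CBLN1 is known from granule cells, CBLN2 from other neurons of the brain, and CBLN4 also binds DCC and neogenin. PN neurons send the main mossy fibre input to the cerebellum, granule cells are the targets of mossy fibres, and the axons of granule cells are the parallel fibres.

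All 7 genes are protein coding in GENCODE vM21 on GRCm38. C1ql1 (ENSMUSG00000045532) lies at chr11:102939264-102946688 on the minus strand, C1ql2 (ENSMUSG00000036907) at chr1:120340582-120343174 on the plus strand, C1ql3 (ENSMUSG00000049630) at chr2:13003457-13011806 on the minus strand and C1ql4 (ENSMUSG00000001076) at chr15:99084086-99087817 on the minus strand. Cbln1 (ENSMUSG00000031654) lies at chr8:87468405-87472609 on the minus strand and Cbln4 (ENSMUSG00000067578) at chr2:172036233-172043466 on the minus strand. The long noncoding gene Gm2694 overlaps Cbln1 on the opposite strand, and the study ran Cell Ranger with its default settings, which are known to count reads of the sense strand. How well reads of Cbln1 and Gm2694 were kept apart was not tested.

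ATOH1 is a basic helix-loop-helix factor, and factors of this class bind E-boxes, written CANNTG. The 250 bases before the start were searched for this motif in the RefSeq promoters of GRCm38.p6. The table used held promoters of 4 of the 7 members, those of C1ql2, C1ql3, C1ql4 and Cbln4. Those of Cbln4, whose level in PN-like cells was nearly the same at E18.5 and P5, and of C1ql2, the member with the fewest UMIs, are shown because the RefSeq start is also the end of the GENCODE gene, so the window holds no transcribed base. Both read 5′ to 3′ on the strand of the gene, with each CANNTG match (6 letters, which read as the same motif on both strands) in capitals.
Cbln4, chr2:172043467-172043716, minus strand: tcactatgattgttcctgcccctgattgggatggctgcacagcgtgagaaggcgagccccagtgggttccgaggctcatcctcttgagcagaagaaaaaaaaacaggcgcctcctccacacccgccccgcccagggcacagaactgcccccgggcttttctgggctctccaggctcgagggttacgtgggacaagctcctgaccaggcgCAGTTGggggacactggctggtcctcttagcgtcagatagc
C1ql2, chr1:120340332-120340581, plus strand: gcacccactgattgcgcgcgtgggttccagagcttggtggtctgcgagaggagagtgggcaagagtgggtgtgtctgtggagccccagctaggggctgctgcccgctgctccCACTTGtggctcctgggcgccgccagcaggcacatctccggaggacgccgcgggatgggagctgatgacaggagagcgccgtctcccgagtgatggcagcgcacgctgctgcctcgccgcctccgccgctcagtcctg
Each holds 1 match, 41 bases before the start in Cbln4 (CAGTTG) and 138 bases before it in C1ql2 (CACTTG). Of 32851 promoters, 66.2% hold at least 1 match in these bases. The motif is so common that a match says nothing about binding by ATOH1, and promoters of the other members are not shown.

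The libraries held 7972 to 15821 barcodes and 108239001 to 236964126 UMIs each. After filters on genes, mitochondrial reads and likely doublets, 80250 cells remained, 3248 to 8726 per library, with a median of 12010.5 to 20922 UMIs per cell. Any 2 libraries shared between 3 and 22 cell barcodes, at most 0.346% of the smaller library. Levels are given as CPM, the UMIs of a gene per 1000000 UMIs, after summing the UMIs of a class or cluster within a library, and n counts libraries. Reads came from the 3′ ends of transcripts, so levels were compared between cells and samples and not between genes. A point mutation is not visible in such counts: Atoh1 itself was at 83.1 ± 46.4 CPM (SD, n = 3) in E14.5 control cells and at 110 ± 30.0 CPM in Atoh1S193A/- cells. 

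Classes were named from marker genes with all 7 members and their partners left out of clustering and naming. PN-like cells (Hoxb2 to Hoxb5, Pax6 and Barhl1) numbered 7516 at E14.5, 3255 at E18.5 and 7467 at P5. The rule differed at P5, where it used the mean of Hoxb2 to Hoxb5 and a score on Slc17a6, Slc17a7, Barhl1, Pax6, Nfib and Zic1. Non-dividing granule lineage-like cells numbered 2809, 16029 and 991 at these stages. The labels call the sorted cells neurons, and the markers did not bear this out everywhere: at P5, 1435 cells were oligodendrocyte lineage-like and 1129 microglia-like. Their level of the WPRE sequence of the reporter transcript was 71.0 ± 45.3 CPM (SD, n = 2) and 63.3 ± 42.2 CPM, against 407 ± 28.1 CPM in PN-like cells. Inhibitory neuron-like cells were also low in WPRE, at 57.4 CPM at E14.5, 124.6 CPM at E18.5 (n = 1) and 99.0 CPM at P5. Astroglia-like cells had 41.7 CPM at E14.5 and 84.1 CPM at P5. PN-like cells had 450 CPM at E14.5 and 384 CPM at E18.5. Whether the cells low in WPRE belong to the Atoh1 lineage was not tested. Clusters that no marker list named are called here by their leading genes. All levels by class and cluster are descriptions, with no test between classes. The map of levels by class sets the members side by side.

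**Figure D1:**
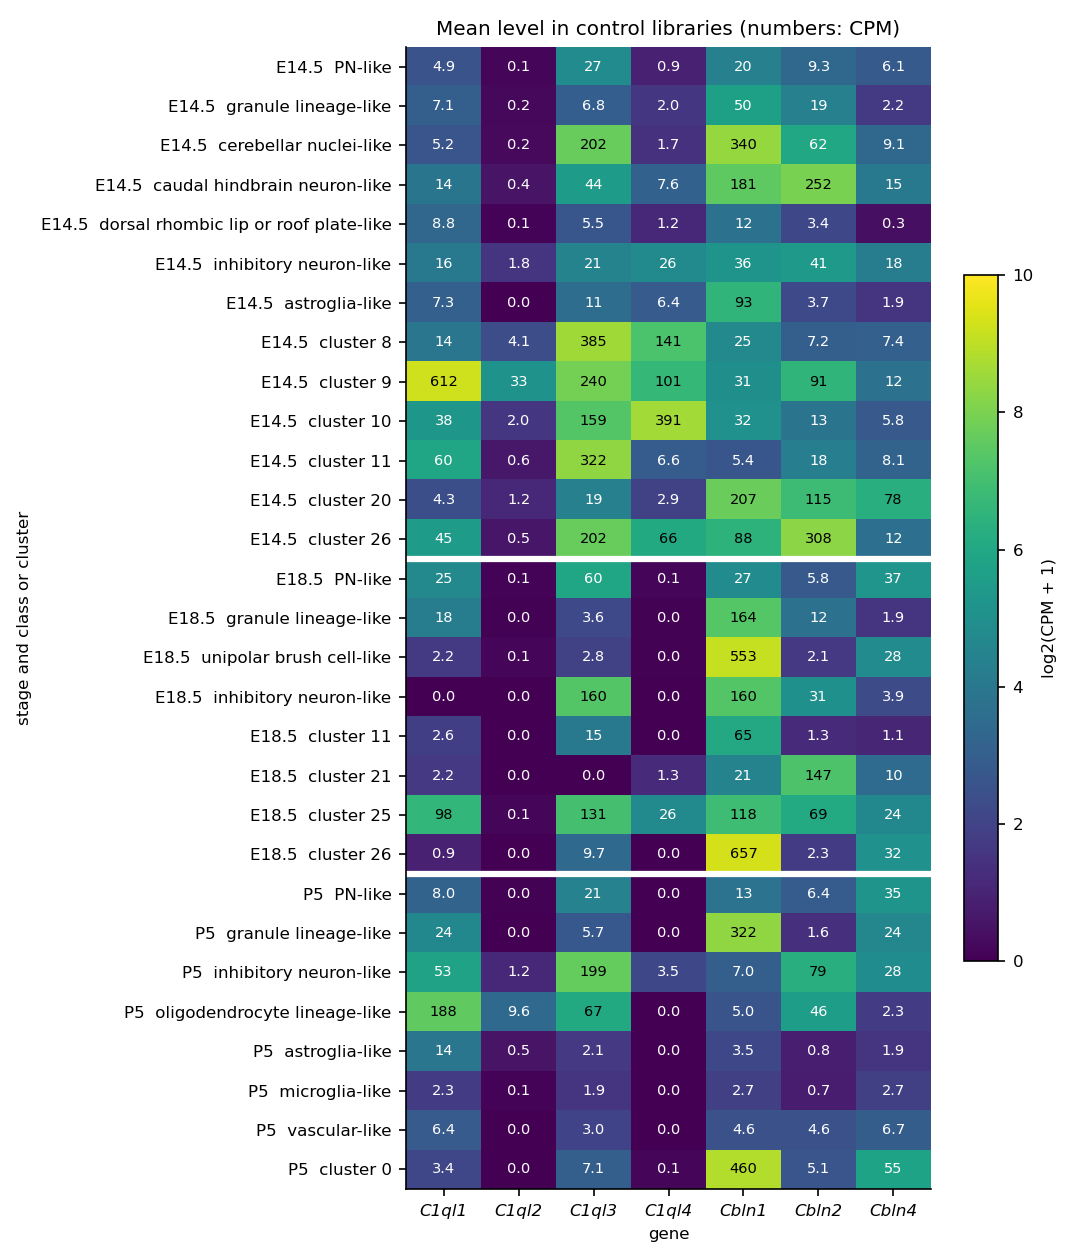
Mean control level of each member (CPM, printed in each cell, colour on a log2(CPM + 1) scale) at E14.5, E18.5 and P5. Rows are chosen named classes and some clusters outside them. Among the named classes drawn, Cbln1 is highest in unipolar brush cell-like cells at E18.5, C1ql1 in oligodendrocyte lineage-like cells at P5, and Cbln4 at P5 in PN-like cells. The E18.5 cluster led by Bcl11b and Lmx1a, outside the named classes, has a higher mean of Cbln1.

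The cells with the highest mean level of C1ql1 were different ones at each stage. At E14.5 it was a cluster led by Sst, Dlk1 and Onecut2, outside the named classes, with 683, 495.6 and 658 CPM of C1ql1 in the 3 control libraries (612 ± 102, SD, n = 3). This cluster held 3.93% of the control cells and 63.9% of their C1ql1 UMIs. The next cluster, led by Foxb1 and Nr4a2, had 105.5 ± 50.1 CPM, and the ranges of these 2 clusters did not overlap. Below it the ranges of neighbouring clusters overlapped down to a sixth cluster at 38.0 CPM.

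At E18.5 the highest level of C1ql1 was 138 ± 24.8 CPM (SD, n = 3) in a PN-like cluster led by Crabp1 and Robo3, with 154, 150.3 and 109 CPM in the control libraries. A cluster led by Meis2, Zfhx3 and Sst followed with 97.6 CPM, and the ranges of the 2 overlapped. Of the 30 clusters 8 had a mean of 20 CPM or more, 6 of them granule lineage-like, and neighbours in the order of these 8 overlapped. Granule lineage-like cells as a class had 19.5, 21.98 and 11.7 CPM of C1ql1, and unipolar brush cell-like cells had a mean of 2.2 CPM. Among granule lineage-like clusters it reached 88.2 CPM, a mean with n = 2. The cluster led by Ung had 69.7, 69.6 and 42.6 CPM in controls and that led by Bcl11b and Nr2f2 had 1.05, 1.38 and 1.52 CPM. The level of C1ql1 within that lineage was thus uneven.

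At P5 the highest levels of C1ql1 were outside neurons. Oligodendrocyte lineage-like cells were 9.52% of the cells and held 54.2% of the C1ql1 UMIs (41.7% and 66.7% in the 2 libraries). The cluster led by Pdgfra, the receptor that marks oligodendrocyte precursors, had 577 and 648 CPM of C1ql1. Its dividing counterpart had 228 and 297 CPM, the cluster led by Gpr17, a marker of committed precursors, had 343.5 and 391 CPM, and the cluster led by Bcas1 and Enpp6, genes of newly formed oligodendrocytes, had 40.6 and 71.1 CPM. In the clusters led by the myelin genes Mag and Mog the highest library reached 10.9 CPM. The ranges of the Pdgfra, Gpr17 and dividing clusters did not overlap with the one below them in this order, with n = 2 each. After each cell was thinned to 5000 UMIs, 92.5% of Pdgfra cells had a C1ql1 UMI, against 4.86% of PN-like cells and 1.39% of microglia-like cells, in which the gene should be absent.

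C1ql2 was nearly absent outside 2 sets of cells. At E14.5 the Sst, Dlk1 and Onecut2 cluster that led for C1ql1 had 30.7, 50.2 and 18.3 CPM of C1ql2 and 71.6% of its UMIs, and the next cluster had 4.13 CPM. At E18.5 no cluster had a control mean above 0.48 CPM, and the highest single library of any cluster was an Atoh1S193A/- one, with 8.33 CPM in the Meis2, Zfhx3 and Sst cluster, where the other mutant libraries had 0 CPM. At P5 the Pdgfra cluster had 34.3 and 46.0 CPM of C1ql2 and the dividing one 20.8 and 33.3 CPM, and oligodendrocyte lineage-like cells held 90.5% of the UMIs. In PN-like cells C1ql2 was at most 0.276 CPM in any library. The 2 places where C1ql2 was highest were thus places where C1ql1 was highest.

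**Figure D2:**
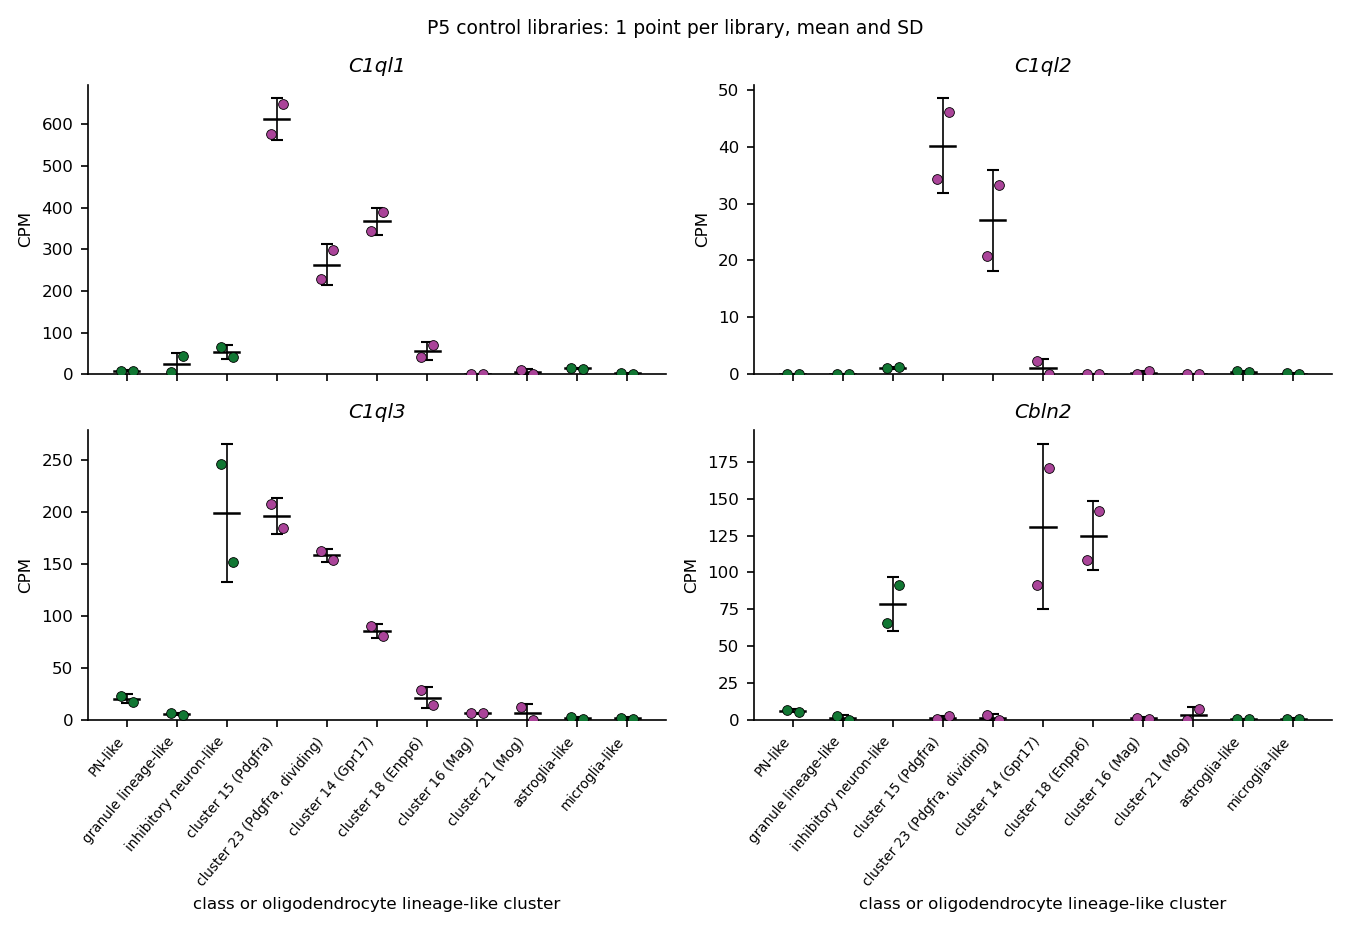
C1ql1, C1ql2, C1ql3 and Cbln2 (CPM) in classes of the 2 P5 libraries and in the oligodendrocyte lineage-like clusters, 1 point per library. Among the oligodendrocyte lineage-like clusters, C1ql1, C1ql2 and C1ql3 have their highest mean in the Pdgfra cluster not marked as dividing. Cbln2 reaches 131 CPM in the Gpr17 cluster and 125 CPM in the Enpp6 cluster.

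C1ql3 was at 20 CPM or more in 19 of 34 clusters at E14.5, 6 of 30 at E18.5 and 12 of 31 at P5, where C1ql1 reached that level in 6, 8 and 10 clusters. At E14.5 the highest cluster was led by Th, Pax5 and En1 (385 ± 166 CPM, SD, n = 3), with 234, 562 and 358 CPM in the libraries, and its range overlapped that of the next, a cluster led by Rorb and Onecut2 with 322 CPM. Cerebellar nuclei-like neurons had 202 ± 123 CPM of C1ql3, caudal hindbrain neuron-like cells 44.3 CPM (18.4 CPM with a mitochondrial limit of 10% and 11.0 CPM at clustering resolution 2.0), PN-like cells 27.1 ± 10.1 CPM and granule lineage-like cells 6.8 CPM. At E18.5 C1ql3 was highest in inhibitory neuron-like cells, at 159.7 CPM in 1 control library. That level was 103.1 CPM with a mitochondrial limit of 10% and 43.9 CPM at clustering resolution 2.0. The cluster led by Meis2, Zfhx3 and Sst had 116.6, 138.8 and 138.6 CPM in controls. The PN-like cluster led by Crabp1 and Robo3 had 61.5, 118.5 and 166.3 CPM. PN-like cells as a class were 11.4% of the cells and held 51.7% of the C1ql3 UMIs, and granule lineage-like cells were at 3.6 CPM. At P5 the inhibitory neuron-like cells (246 and 152 CPM) and the Pdgfra cluster (208 and 184 CPM) led, with overlapping ranges, and PN-like cells at 20.6 ± 4.12 CPM (SD, n = 2) held 73.2% of the UMIs from 53.1% of the cells. PN-like cells of P5 were deeper, with a median of 28564 to 32246 UMIs per cell against 19069 to 20806 in all kept cells. A share of UMIs above the share of cells therefore does not show a higher level there.

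The highest levels of C1ql4 were at E14.5. A cluster led by Zfhx3, Pou3f2 and Pax5 had 340.5, 486 and 347 CPM of C1ql4 (391 ± 82.1, SD, n = 3) and, with 5.69% of the cells, 52.6% of the UMIs. The Th, Pax5 and En1 cluster followed with 141 CPM and the Sst, Dlk1 and Onecut2 cluster with 101 CPM, whose ranges overlapped each other and not that of the first. At E18.5, 91.5% of the C1ql4 UMIs were in the Meis2, Zfhx3 and Sst cluster, with 50.7, 15.8 and 12.6 CPM, and at P5 the highest cluster had 3.52 CPM. In PN-like cells the highest control library had 1.14 CPM at E14.5 and 0.128 CPM at E18.5. The E14.5 clusters high in C1ql4 were outside the named classes and low in Hoxb2 to Hoxb5. Such clusters held 9489 cells at E14.5 and 743 at E18.5, and the P5 libraries came from dissected PN. The part of this makeup in the lower C1ql4 of the later stages was not tested.

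The highest levels of Cbln1 in the embryo were in lineages of the cerebellum, but other classes also had it. At E14.5 cerebellar nuclei-like neurons had 368, 301.5 and 349.6 CPM (340 ± 34.4, SD, n = 3), which no library of another cluster reached, and caudal hindbrain neuron-like cells had 181 ± 20.9 CPM, a level that was 67.1 CPM with a mitochondrial limit of 10% and 56.4 CPM at clustering resolution 2.0. Granule lineage-like cells were at 61.3, 30.0 and 58.3 CPM. Astroglia-like cells had a higher mean, 92.9 CPM, which was 35.3 CPM with a mitochondrial limit of 10% and 20.7 CPM with no doublets removed. At E18.5 unipolar brush cell-like cells, excitatory interneurons of the granular layer, had 589, 513 and 557 CPM, and granule lineage-like cells had 180.1, 144 and 166 CPM. Inhibitory neuron-like cells had 159.7 CPM in 1 control library, a level that was 20.4 CPM with a mitochondrial limit of 10% and 41.2 CPM at clustering resolution 2.0. The range of the highest cluster, unipolar brush cell-like and led by Calb2 and Grp, did not overlap that of a cluster led by Bcl11b and Lmx1a (657 ± 35.3 CPM), which did overlap that of the granule lineage-like cluster led by Fgf5 and Syt4 (639 ± 56.2 CPM). Granule lineage-like cells, 71.0% of the cells, held 72.4% of the Cbln1 UMIs, and unipolar brush cell-like cells held 16.4% from 7.71% of the cells. At P5 granule lineage-like cells had 490.1 and 155 CPM of Cbln1 in the 2 libraries, far apart for this class, and a cluster led by Grp and Eomes had 472 and 448 CPM. Some granule lineage-like clusters, with 205, 359 and 149 cells there, reached 10 cells in only 1 of the P5 libraries. The makeup of the class thus differed between the libraries, and its part in the gap was not tested.

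Low levels of Cbln1 could not be told from free RNA in the embryonic libraries. At E18.5 all 30 clusters had at least 21.2 CPM of Cbln1. Microglia-like cells, which should lack it, had 19.6 CPM at E18.5 (7 UMIs in 37 cells, exact 95% Poisson interval 7.89 to 40.5 CPM) and 18.6 CPM at E14.5 (6 UMIs in 27 cells, 6.82 to 40.5 CPM). The PN-like means of 27.1 CPM at E18.5 and 19.7 CPM at E14.5 lay inside these intervals, but with no doublets removed the E18.5 mean was 50.8 CPM, above its interval. At P5 microglia-like cells had 2.90 CPM of Cbln1 (2.02 to 4.03 CPM) and PN-like cells 13.9 and 12.01 CPM. Such intervals cover counting error only. The values of PN-like Cbln1 in the embryo are therefore given below without being read as expression.

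Cbln2 (ENSMUSG00000024647) lies at chr18:86711110-86718283 on the plus strand. It was highest at E14.5 in a cluster led by Foxp2 and Nr4a2, with 296, 334.5 and 293 CPM (308 ± 23.1, SD, n = 3), whose range overlapped that of a caudal hindbrain neuron-like cluster at 259 CPM. Caudal hindbrain neuron-like cells as a class had 252 ± 47.1 CPM, cerebellar nuclei-like neurons 62.3 CPM and PN-like cells 9.3 CPM. At E18.5 it was highest in a cluster led by Tcf7l2 and Zfhx3, with 122 and 173 CPM (n = 2), whose range overlapped that of the next, a granule lineage-like cluster led by Dnm3 and Rorb. The latter had 124, 131 and 120.1 CPM of Cbln2, whereas granule lineage-like cells as a class had 12.1 CPM, so most of that class had little. At P5 it was highest in the Gpr17 cluster (91.7 and 171 CPM) and the Enpp6 cluster (108 and 141.5 CPM), whose ranges overlapped. In the Pdgfra cluster, where C1ql1 was highest, Cbln2 was at 0.771 and 2.42 CPM. Among oligodendrocyte lineage-like clusters the levels of C1ql1 and Cbln2 were thus highest in different ones.

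Cbln4 had no cluster above 78.5 CPM at any stage. At E14.5 that cluster had Atoh7 and Nrgn among its leading genes, with 127, 30.9 and 77.9 CPM, whose range overlapped that of the next cluster at 39.2 CPM. From E18.5 its UMIs were mostly in PN-like cells: 53.4% of them in 11.4% of the cells at E18.5 and 91.3% in 53.1% of the cells at P5. The P5 share is raised by the greater depth of PN-like cells, given above for C1ql3. At E18.5 the highest single cluster was unipolar brush cell-like, led by Calb2 and Grp, with 54.3, 38.8 and 59.1 CPM of Cbln4 (50.8 ± 10.6, SD, n = 3), and its range overlapped that of the next, the PN-like cluster led by Cntnap5a and Gabrg1 (44.7 CPM). Unipolar brush cell-like cells as a class had 27.5 CPM of Cbln4, PN-like cells 36.6 CPM and granule lineage-like cells 1.9 CPM. The order of the first pair of classes turned when cells were clustered and named again: unipolar brush cell-like cells had 42.2 CPM with a mitochondrial limit of 10% and 49.1 CPM with no doublets removed, where PN-like cells had 34.6 and 34.8 CPM. At P5 microglia-like cells had 2.98 CPM (2.09 to 4.13), against 34.6 and 35.6 CPM of Cbln4 in PN-like cells.

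In control PN-like cells C1ql3, Cbln4 and C1ql1 were called higher at E18.5 than at E14.5, and for the last 2 only a rise could be called, since they passed the filter on low values through E18.5 alone. The calls come from edgeR's quasi-likelihood test on UMIs summed per library, with Benjamini-Hochberg adjustment over all genes tested (FDR) and a call at FDR under 0.05 with a log2 change over 0.25. Of all genes tested in these cells, 63.8% were called between these stages and 32.5% were called higher, so a call here is common. Of the 7 members, 5 passed the filter of a UMI in 10% of the cells of either group, and C1ql2 and C1ql4 did not.

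Cbln4 rose from 8.43, 3.27 and 6.66 CPM in the E14.5 control libraries to 35.9, 36.9 and 36.9 CPM at E18.5. The groups did not overlap, and the log2 change was 2.49 (SE 0.28, FDR 0.000165). C1ql3 rose from 21.9, 20.7 and 38.7 CPM to 49.3, 72.1 and 58.8 CPM, again without overlap, with a log2 change of 1.04 (SE 0.28, FDR 0.0156). C1ql1 rose from 4.43, 2.45 and 7.77 CPM to 32.0, 29.6 and 13.7 CPM, a log2 change of 2.21 (SE 0.50, FDR 0.00964). Cbln4 and C1ql1 had a UMI in 8.12% and 5.42% of E14.5 cells and so passed the filter only through E18.5. Microglia-like cells had 0 UMIs of C1ql1 at E14.5 (exact 95% Poisson interval up to 11.4 CPM) and 1 of Cbln4 (up to 17.3 CPM), so the E14.5 means of both genes lay inside the background, whereas both E18.5 means lay above the upper bounds of that stage (20.3 and 15.6 CPM).

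Cbln1 in PN-like cells was called higher by 0.36 on the log2 scale (SE 0.14, FDR 0.0479), at levels inside the microglia-like intervals given above, and this call was lost under 9 alternatives. Cbln2 was at 9.34 ± 7.15 CPM and then at 5.84 ± 0.52 CPM (SD, n = 3 each; log2 change -0.80, SE 0.57, FDR 0.256), and with no doublets removed it was called lower (-2.64). The call for C1ql3 was lost without replicate 1 of the E14.5 controls (log2 change 0.88) or replicate 3 of the E18.5 controls (1.05), in the libraries processed with Cell Ranger 5.0.1 alone, which keep only replicate 3 of the E14.5 controls (0.49), with no filter on low values (0.99) and with no doublets removed (0.27). The call for C1ql1 was lost in those last 3 settings, at 1.501 and 0.58 with Cell Ranger 5.0.1 alone and with no doublets removed. In these settings Cbln4 stayed called, with log2 changes from 1.82 to 2.73. With Cell Ranger 5.0.1 alone the E14.5 arm is 1 library, which is assumed to vary like the E18.5 group, so that value (2.30) says nothing of stability.

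From E18.5 to P5, C1ql3 in PN-like cells fell to 23.5 and 17.7 CPM, a log2 change of -1.46 (SE 0.18, FDR 0.000117), so that its highest stage was E18.5. C1ql1 fell to 7.23 and 8.87 CPM (log2 change -1.51, SE 0.38, FDR 0.0187) and Cbln1 to 13.9 and 12.01 CPM (log2 change -0.99, SE 0.15, FDR 0.000128). The level of Cbln4 was 34.6 and 35.6 CPM, with a log2 change of 0.02 (95% interval from -0.17 to 0.21). Cbln2 had 7.13 and 5.73 CPM, a log2 change of 0.23 that was not called. In these cells 64.5% of all genes tested were called and 32.6% were called lower. The call for C1ql1 was lost without replicate 2 of the E18.5 controls or without either P5 library. Stage, dissection of the PN, pooling of pups and the rule naming PN-like cells changed together between E18.5 and P5 and cannot be told apart. Both stage comparisons share the E18.5 controls.

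**Figure D3:**
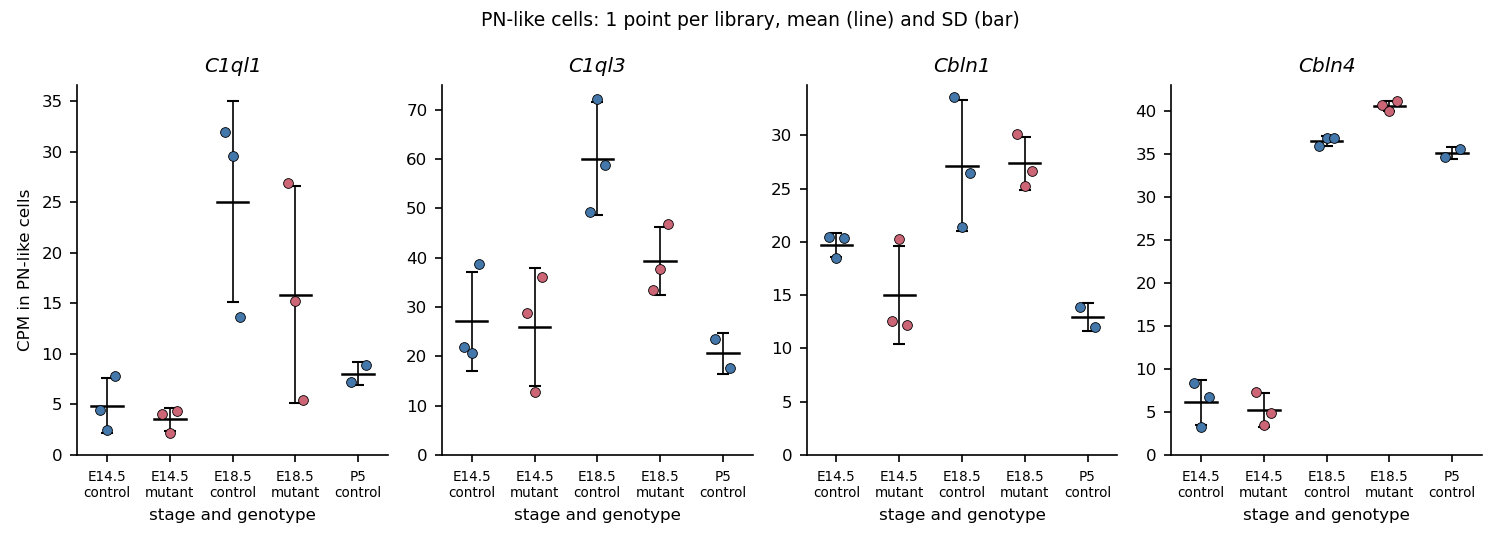
C1ql1, C1ql3, Cbln1 and Cbln4 (CPM) in PN-like cells, 1 point per library, with the mean and SD of each group of control and Atoh1S193A/- libraries at E14.5 and E18.5 and of controls at P5. C1ql3 in controls is highest at E18.5, with 49.3 to 72.1 CPM, where Atoh1S193A/- has 33.5 to 46.8 CPM, and Cbln4 stays at 34.6 to 41.1 CPM in the libraries of E18.5 and P5.

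Within PN-like cells the members marked different states. States were named by the marker lists the study had found on these same libraries, without the members, so they are no independent set, and levels by state are descriptions. At E18.5 C1ql1 was highest in intermediate progenitors, with 247, 201 and 210.5 CPM in the control libraries, although only 10 to 21 cells stood behind each value. Migrating neurons had 74.1, 71.5 and 55.8 CPM of C1ql1, without overlap with the progenitors. In the embryonic PN subtypes ePN1, ePN2 and ePN3 C1ql1 was at 7.87, 8.17 and 1.61 CPM.

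C1ql3 at E18.5 was at 126 ± 42.3 CPM (SD, n = 3) in migrating neurons and at 91.4 ± 21.4 CPM in ePN1, whose ranges overlapped. It was at 57.5 CPM in ePN4 (n = 2), 29.4 CPM in ePN2, 20.9 CPM in ePN3 and 18.7 CPM in intermediate progenitors. Cbln4 had another order, with 57.1 ± 7.52 CPM in ePN2, 44.6 CPM in ePN4, 34.6 CPM in ePN3, 30.3 CPM in ePN1, 20.7 CPM in migrating neurons and 1.10 CPM in intermediate progenitors. In ePN2 the Cbln4 values of 60.3, 62.5 and 48.5 CPM lay above those of the 3 libraries in ePN1, ePN3 and migrating neurons. Cbln2 was at 15.1 and 106.5 CPM in ePN4 and at 10.8 CPM or less in the other states, so its ePN4 level rests on 1 library.

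At E14.5 C1ql3 was at 40.2 ± 6.99 CPM (SD, n = 3) in differentiated PN-like neurons and at 5.41 ± 3.85 CPM in intermediate progenitors, while migrating neurons and progenitors lay between them. Cbln4 was at 10.8 ± 3.78 CPM in differentiated neurons and at 0.126 CPM in progenitors. Both genes thus had their highest E14.5 mean in differentiated neurons, and C1ql1 in none of the states exceeded a mean of 11.8 CPM.

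At P5 the 6 PN subtypes of the study fell apart for C1ql1 and C1ql3 more than for Cbln4. C1ql1 was at 15.0 and 18.4 CPM in PN3 and 11.4 and 12.5 CPM in PN5, had a mean of 10.8 CPM in PN2, and PN1, PN4 and PN6 had at most 3.17 CPM in any library. C1ql3 was at 29.6 and 47.0 CPM in PN5, 29.5 and 39.1 CPM in PN3 and 25.3 and 40.3 CPM in PN6, which overlapped one another, and at 17.5 CPM in PN1, 11.6 CPM in PN2 and 7.38 CPM in PN4. Cbln4 ranged only from 23.4 CPM in a PN6 library to 53.8 CPM in a PN5 library. PN4 had the lowest mean C1ql3 and, at 20.5 CPM, the highest mean Cbln1.

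**Figure D4:**
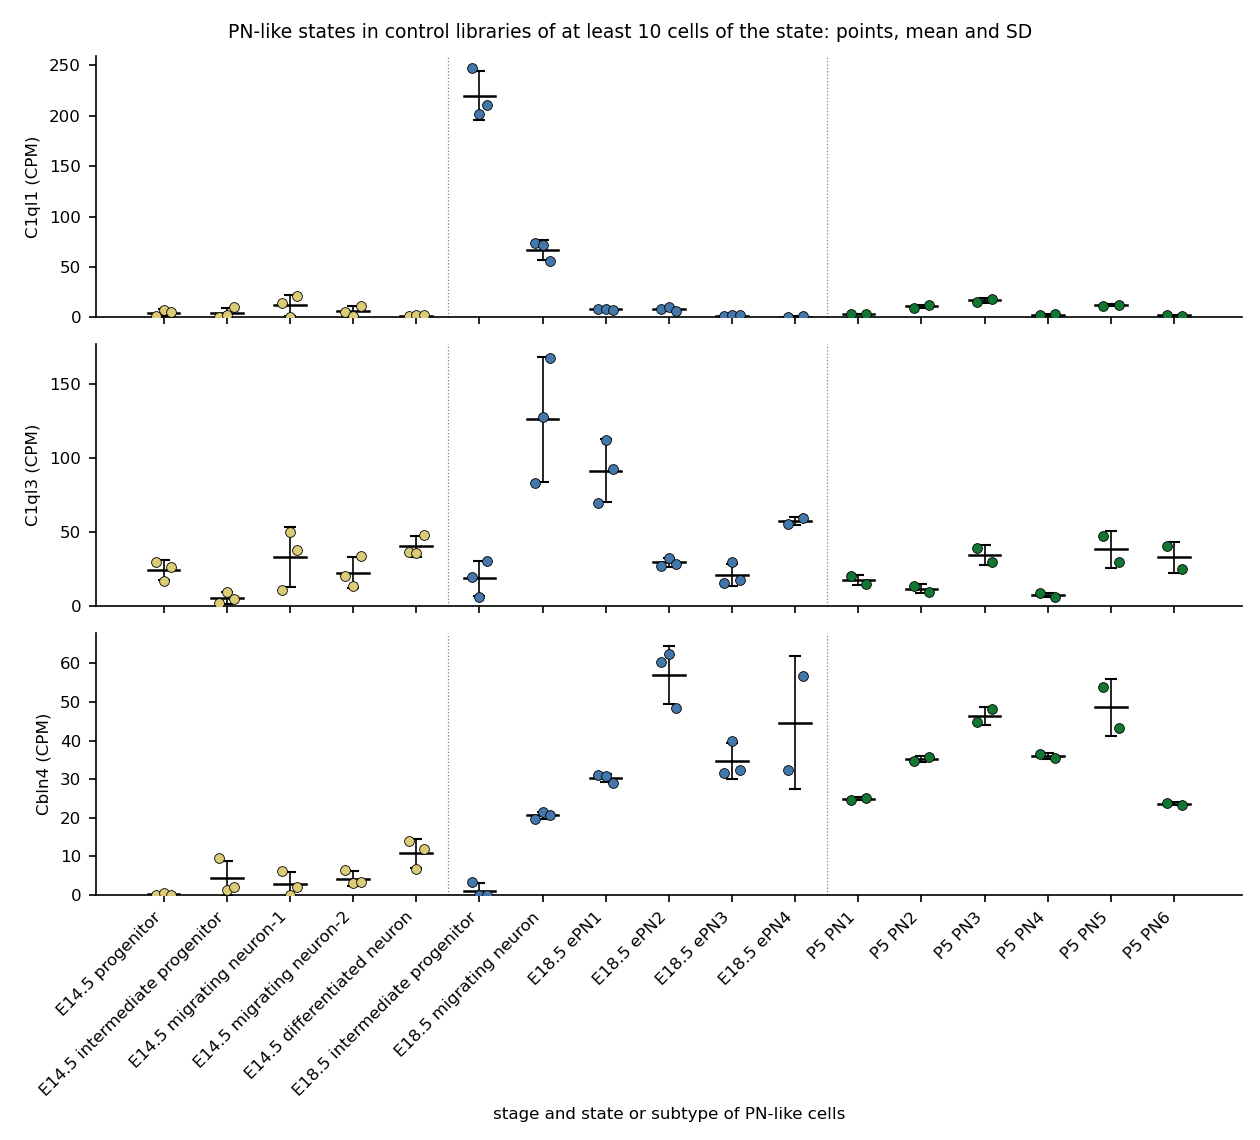
C1ql1, C1ql3 and Cbln4 (CPM) by PN-like state at E14.5 and E18.5 and by PN subtype at P5, 1 point per control library with at least 10 cells of the state. C1ql1 peaks in E18.5 intermediate progenitors (201 to 247 CPM), C1ql3 in migrating neurons and ePN1, and Cbln4 in ePN2 (48.5 to 62.5 CPM).

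In granule lineage-like cells Cbln1 rose between E14.5 and E18.5 from 61.3, 30.0 and 58.3 CPM to 180.1, 144 and 166 CPM in the control libraries. The groups did not overlap, and the log2 change was 1.61 (SE 0.24, FDR 0.00224). With a mitochondrial limit of 10% the E14.5 mean of Cbln1 went from 49.9 to 33.0 CPM. C1ql1 rose from 7.19, 6.41 and 7.73 CPM to 19.5, 21.98 and 11.7 CPM (log2 change 1.21, SE 0.22, FDR 0.00277), and this call was lost with Cell Ranger 5.0.1 libraries alone. Cbln2 fell from 16.6, 17.5 and 24.0 CPM to 10.9, 9.80 and 15.6 CPM (log2 change -0.78, SE 0.21, FDR 0.0155). That direction turned when the mitochondrial limit was 10% and the cells were clustered again (log2 change 0.88), which changes the cells of the class, and the call was lost without replicate 3 at E14.5 or replicate 1 or 2 at E18.5. Cbln2 had a UMI in 8.55% of E18.5 cells and passed the filter through E14.5 only, so only a fall could be called. In microglia-like cells the exact 95% Poisson interval at E18.5 was 0.679 to 20.3 CPM for C1ql1 and 0.071 to 15.6 CPM for Cbln2, and at E14.5 it went up to 11.4 CPM for both. The granule lineage-like class means of C1ql1 at both stages and of Cbln2 at E18.5 lay inside these intervals. Single granule lineage-like clusters of E18.5 lay above them, such as that led by Ung with 69.7, 69.6 and 42.6 CPM of C1ql1 in the controls and that led by Dnm3 and Rorb for Cbln2. Of all genes tested, 45.1% were called, 24.5% higher and 20.7% lower.

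In all kept cells together the stage changes mixed level and makeup, since fewer cells of a type and less RNA per cell cannot be told apart in such sums. Of the 6 members tested there, Cbln1 was called higher at E18.5 (from 71.4, 71.3 and 75.9 CPM to 199, 151 and 155 CPM; log2 change 1.12, SE 0.11) and 4 were called lower. Of all genes tested there, 51.5% were called, 26.4% higher and 25.1% lower. C1ql4 fell most, from 14.7, 55.3 and 27.8 CPM to 1.09, 0.287 and 0.493 CPM (log2 change -5.76, SE 0.66). C1ql3 fell from 37.8, 95.3 and 71.7 CPM to 9.64, 13.7 and 20.9 CPM (log2 change -2.30, SE 0.42), opposite to its change in PN-like cells. Cbln2 fell by 2.60 and C1ql1 by 1.04 on the log2 scale, and Cbln4 was not called (log2 change -0.49). C1ql3, C1ql4, Cbln2 and Cbln4 passed the filter through E14.5 only, so for these only a fall could be called. Granule lineage-like cells were 71.0% of the control cells at E18.5, and their part in these changes was not tested.

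Between genotypes at E14.5, no level of a member in a named class, PN-like state or all kept cells was called among 38 tested, with 5 at an unadjusted p under 0.05, and DESeq2 called 1. In all kept cells 0.00977% of all genes tested were called, in PN-like cells 8.89% and in the other 6 classes 0%. Among the PN-like states the share was 0.0109% in intermediate progenitors, 0.0099% in progenitors and 0% in migrating and differentiated neurons. With the litter as a block 5 member levels were called, all lower in Atoh1S193A/-. That fit called 17.8% of genes in all kept cells (7.39% lower) and 24.9% in PN-like cells (10.7% lower). Replicates 1 and 2 of the E14.5 controls were processed with Cell Ranger 3.1.0 and all mutants with 5.0.1. Genotype and version changed together in those litters and cannot be told apart there.

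In all kept E14.5 cells Cbln1 was at 71.4, 71.3 and 75.9 CPM in controls and at 56.4, 48.5 and 48.5 CPM in Atoh1S193A/-. The groups did not overlap, and the level was lower in 3 of 3 litters. The log2 change was -0.54 (SE 0.10, FDR 0.277) without the litter block and -0.54 (SE 0.07, FDR 0.00595) with it, and DESeq2, which called 2.43% of genes (0.82% lower), called it as well (FDR 0.00089). With the block Cbln4 (log2 change -0.46, SE 0.08, FDR 0.00973), Cbln2 (-0.46, SE 0.08, FDR 0.0101) and C1ql3 (-0.35, SE 0.09, FDR 0.0341) were called as well, each with overlapping groups.

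Within single classes Cbln1 was not called without the block or with it. Without the block its log2 change was -0.39 (SE 0.25) in cerebellar nuclei-like neurons, -0.29 (SE 0.25) in inhibitory neuron-like cells, -0.28 (SE 0.52) in granule lineage-like cells, 0.10 (SE 0.24) in astroglia-like cells, 0.17 (SE 0.14) in caudal hindbrain neuron-like cells and 0.19 (SE 0.37) in dorsal rhombic lip or roof plate-like cells. Each mutant was below its littermate in cerebellar nuclei-like neurons and in granule lineage-like cells, with overlapping groups. In PN-like intermediate progenitors Cbln1 was at 9.54, 10.2 and 7.75 CPM in controls and at 3.41, 3.50 and 4.82 CPM in Atoh1S193A/-, without overlap and inside the microglia-like interval or below it, with a log2 change of -1.25 (SE 0.30, FDR 0.714; with the block FDR 0.0645). The makeup of the E14.5 libraries moved with genotype: dorsal rhombic lip or roof plate-like cells, at 12.2 CPM of Cbln1, were 4.72% of control and 12.5% of Atoh1S193A/- cells, caudal hindbrain neuron-like cells 7.77% and 5.28%, and cerebellar nuclei-like neurons 3.58% and 2.19%. The part of these shares in the Cbln1 level of all kept cells was not tested.

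In E14.5 PN-like cells Cbln2 was at 4.06, 17.5 and 6.47 CPM in controls and at 2.45, 11.5 and 4.00 CPM in their Atoh1S193A/- littermates. The groups overlapped, while each mutant was below its littermate, and the log2 change of -0.70 was called with the litter block (SE 0.12, FDR 0.00441) and not without it (SE 0.76, FDR 0.611). Only the values of 17.5 and 11.5 CPM lay above the E14.5 microglia-like interval of Cbln2, which went up to 11.4 CPM. The other values could not be told from free RNA. C1ql3 had 21.9, 20.7 and 38.7 CPM in controls and 28.8, 12.8 and 36.1 CPM in mutants (log2 change -0.10, 95% interval from -0.95 to 0.76). Cbln1 had a log2 change of -0.43 (SE 0.19, FDR 0.207) and was called only without replicate 2 of Atoh1S193A/- (-0.71, FDR 0.0130). Progenitors were 8.29% of control and 29.2% of Atoh1S193A/- PN-like cells and differentiated neurons 32.3% and 22.4%, and the part of these shares was not tested.

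Clusters outside the named classes gave 57 further tests at E14.5, with no call without the block and 4 at an unadjusted p under 0.05. Of all genes tested, 0.134% were called in the cluster numbered 18, 0.0104% in that numbered 1 and 0% in the others. With the litter block 1 was called, C1ql3 in the cluster led by Foxb1 and Nr4a2, where 0.089% of genes were called (0.0593% lower). There C1ql3 was at 61.9, 87.95 and 93.7 CPM in controls and at 42.1, 53.2 and 42.8 CPM in Atoh1S193A/-, without overlap (log2 change -0.86, SE 0.16, FDR 0.0187; without the block SE 0.19, FDR 1.00).

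At E18.5 none of 25 levels of members in named classes, PN-like states and all kept cells was called, with 2 at an unadjusted p under 0.05 and none called by DESeq2. Of all genes, 0.0201% were called in PN-like cells, 0.0306% in granule lineage-like cells, 0.0112% in unipolar brush cell-like cells and 0% in all kept cells. By PN-like state the share was 0.0521% in migrating neurons, 0.00984% in ePN3 and 0% in ePN1 and ePN2. With the litter as a block 1 member level was called, C1ql3 in PN-like cells, where 0.654% of genes were (0.352% lower).

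C1ql3 in E18.5 PN-like cells was at 49.3, 72.1 and 58.8 CPM in controls and at 33.5, 37.7 and 46.8 CPM in Atoh1S193A/-. The groups did not overlap, and the level was lower in 3 of 3 litters, with a log2 change of -0.58 (SE 0.10, FDR 0.0404) with the block and -0.62 (SE 0.18, FDR 1.00) without it. By state and without the block, the log2 change of C1ql3 was -0.76 (SE 0.50) in migrating neurons, -0.18 (SE 0.21) in ePN1, 0.24 (SE 0.18) in ePN2 and -0.35 (SE 0.23) in ePN3, none of them called with or without the block. The share of ePN1, where C1ql3 was high, was 16.8% of PN-like cells in controls and 6.00% in Atoh1S193A/-, and that of ePN2 was 24.6% and 31.8%. The part of these shares in the C1ql3 level was not tested.

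Cbln4 in E18.5 PN-like cells was at 35.9, 36.9 and 36.9 CPM in controls and at 40.7, 40.0 and 41.1 CPM in Atoh1S193A/-. The groups did not overlap, but the difference was small (log2 change 0.14, 95% interval from -0.0045 to 0.29) and was not called. C1ql1 was at 32.0, 29.6 and 13.7 CPM in controls and at 26.9, 15.3 and 5.43 CPM in mutants, lower in 3 of 3 litters with overlapping groups and not called (log2 change -0.61, SE 0.65; with the block -0.71, SE 0.21, FDR 0.314). In unipolar brush cell-like cells Cbln1 differed by 0.10 on the log2 scale (95% interval from -0.05 to 0.24) and was not called.

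In granule lineage-like cells as 1 class Cbln1 differed by -0.01 on the log2 scale (95% interval from -0.26 to 0.24). Dividing and non-dividing cells of the class were tested apart after their values had been seen, so what follows for these 2 sets is a description and no independent support. In dividing cells Cbln1 was at 69.3, 60.7 and 60.6 CPM in controls and at 44.7, 37.6 and 41.5 CPM in Atoh1S193A/-. The groups did not overlap, and the level was lower in 3 of 3 litters, with a log2 change of -0.64 (SE 0.07, FDR 0.00436) beside 0.341% of genes called (0.191% lower). With the litter block the FDR was 3.26e-05 (1.52% of genes called, 0.843% lower) and with DESeq2 1.37e-09 (0.963% called, 0.562% lower).

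In non-dividing cells Cbln1 was at 255, 196 and 230.2 CPM in controls and at 247, 209 and 278 CPM in mutants, with overlapping groups (log2 change 0.08, 95% interval from -0.15 to 0.31; 0.0105% of genes called). The mutant values in dividing cells lay near or below the upper bound of Cbln1 in E18.5 microglia-like cells, 40.5 CPM. At E18.5 C1ql1 was called in neither set and Cbln2, tested in non-dividing cells only, was not called, and no member was called in them at E14.5, with the block or without it (0% of genes called without it).

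The lower values were not limited to the clusters named dividing. That name rests on a score of markers such as Mki67, Top2a and Cenpf. Of 17 granule lineage-like clusters with values at E18.5, Cbln1 was lower in Atoh1S193A/- in 3 of 3 litters without overlap in 9, namely 5 of 5 dividing clusters and 4 of 12 non-dividing ones, and higher without overlap in 1. These are values that were not tested, and the clusters come from the same libraries, so they are not separate support. How many other genes show such a pattern was not counted. In the non-dividing cluster led by Pmaip1 and Fgf8 Cbln1 was at 74.8, 56.1 and 52.4 CPM in controls and at 43.3, 33.8 and 39.5 CPM in mutants, and in that led by Ung it was at 34.1, 28.6 and 26.9 CPM in controls and at 21.8, 14.04 and 22.5 CPM in mutants. All values of the Ung cluster lay inside the E18.5 microglia-like interval of Cbln1, 7.89 to 40.5 CPM. The Ung cluster also had the cell cycle genes Ccnd1, Mcm3, Mcm4 and Mcm6 among its leading genes. Its place among the non-dividing clusters thus rests on the score alone, and it does not show lower values outside cycling cells. The 1 higher cluster had a level several times that of the Pmaip1 and Ung clusters. In this cluster, led by Cartpt and Nefm, Cbln1 was at 469, 424 and 363 CPM in controls and at 512, 474 and 472.5 CPM in mutants, without overlap. In the cluster led by Pvalb and Pdlim3 it was at 130, 146 and 96.9 CPM in controls and at 43.3, 48.6 and 58.6 CPM in mutants, and C1ql1 there was at 61.9, 64.9 and 45.9 CPM in controls and at 19.6, 12.2 and 0 CPM in mutants. That cluster held 19 to 21 cells in each control library and 38 to 70 in each mutant one.

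In E18.5 clusters outside the named classes 1 of 14 levels was called, Cbln1 in a cluster led by Nts, Rassf9 and Olig2, beside 0.514% of genes (0.23% lower). In 1 other such cluster 0.173% of genes were called and in the rest 0%. Cbln1 was at 69.5, 53.8 and 73.1 CPM there in controls and at 42.1, 40.2 and 39.6 CPM in Atoh1S193A/-, without overlap, with a log2 change of -0.69 (SE 0.15, FDR 0.0400; with the block FDR 0.0312, where 0.547% of genes were called and 0.241% lower). DESeq2 did not call it (FDR 0.3002), and the call was lost without replicates 1 or 3 of the controls and without any one of the Atoh1S193A/- replicates. The mutant values lie near or below the upper bound of Cbln1 in E18.5 microglia-like cells, 40.5 CPM.

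**Figure D5:**
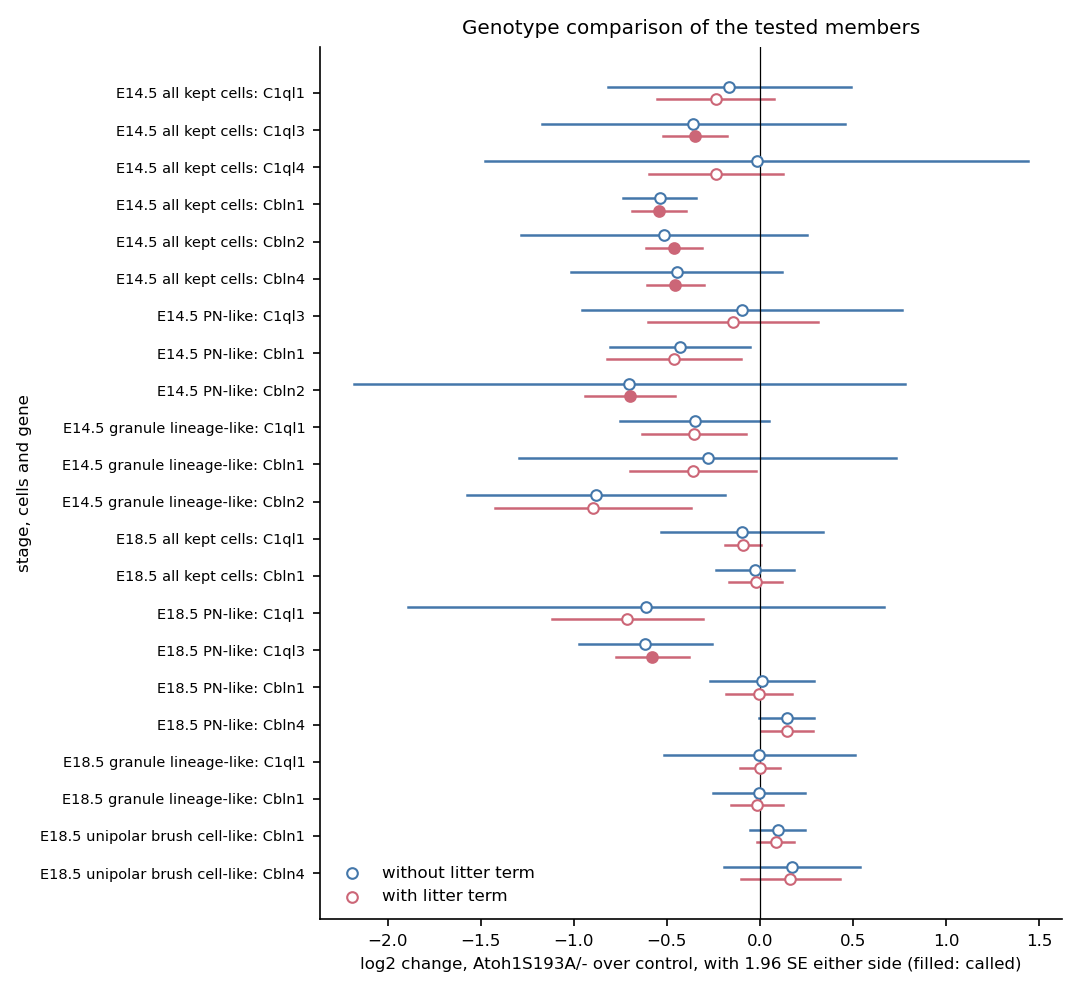
Log2 change of the members tested (Atoh1S193A/- against control, with its 95% interval) at E14.5 and E18.5 in PN-like cells, granule lineage-like cells and all kept cells, without and with the litter as a block, and filled where called. Every filled point is from the fit with the block and lies below 0, and the C1ql3 change in E18.5 PN-like cells is -0.58.

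The members below the filter in all kept cells were compared by an exact two-sided permutation test, which cannot give a p under 0.1 with 3 against 3 libraries. This test takes no account of litters. C1ql2 at E14.5 and C1ql3 at E18.5 were each lower in Atoh1S193A/- in 3 of 3 litters, with overlapping groups. C1ql2 at E18.5 was lower in 2 litters and higher in 1. At E14.5 C1ql2 was at 1.87 ± 1.30 CPM in controls and 1.06 ± 0.99 CPM in Atoh1S193A/- (SD, n = 3 each, exact permutation p = 0.5). At E18.5 C1ql3 was at 14.7 ± 5.70 and 10.1 ± 5.46 CPM (exact permutation p = 0.4), and C1ql2, C1ql4, Cbln2 and Cbln4 had exact permutation p-values of 0.8 to 0.9.

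The genotype effects at the 2 stages were set against each other by an interaction term in 14 member levels, and none was called, with 1 at an unadjusted p under 0.05 and none called by DESeq2. That 1 was Cbln1 in all kept cells, where the effect at E18.5 exceeded that at E14.5 by 0.52 on the log2 scale (SE 0.15, FDR 0.531) and 0% of genes were called. In PN-like cells 2.5% of genes had an interaction call and in granule lineage-like cells 0%. With the litter block the difference was 0.53 (SE 0.12, FDR 0.0247) for Cbln1 and 0.51 (SE 0.12, FDR 0.0249) for Cbln4, beside 14.8% of genes (6.22% higher). Cbln4 passed the filter there through E14.5 only. The Cell Ranger version differed between genotypes in the E14.5 litters of replicates 1 and 2 and in no E18.5 litter. C1ql3 in PN-like cells had a difference of -0.50 (SE 0.53), so the E18.5 change of C1ql3 was not shown to differ from that at E14.5.

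The receptors and binding partners of these proteins were followed as a list of 12 genes. In PN-like cells 9 were called higher at E18.5 than at E14.5 and 2 lower among 11 tested, with a median log2 change of 1.48 against 0.00 over all genes, of which 63.8% were called and 32.5% higher. Adgrb1 (log2 change 2.47), Grid1 (2.04) and Adgrb3 (1.79) rose and Dcc, the netrin receptor that CBLN4 binds, fell (-1.95). The level of Adgrb3 went from 38.5 to 142 CPM and that of Dcc from 77.3 to 21.99 CPM. From E18.5 to P5, 7 of 12 were called higher and 2 lower, beside 64.5% of all genes called and 32.6% called lower, with Nrxn3 (1.31), Grik4 (1.18) and Adgrb1 (0.68) rising and Dcc (-2.52) falling again.

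In granule lineage-like cells 7 of 9 partners tested were called higher at E18.5 and none lower, where 45.1% of all genes were called and 24.5% higher, among them Nrxn3 (log2 change 2.52), Grik2 (1.10) and Nrxn2 (1.00), where Cbln1 itself had 1.61. At P5 the oligodendrocyte lineage-like cells, high in C1ql1, had 55.8 CPM of its receptor gene Adgrb3, against 117 CPM in PN-like cells and 181 CPM in granule lineage-like cells. The last class differed in makeup between the P5 libraries.

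Between genotypes at E14.5, 4 of 10 partners tested in PN-like cells were called higher in Atoh1S193A/- and 1 lower, beside 8.89% of all genes called. Those called higher included Adgrb2 (log2 change 1.15, SE 0.17), Nrxn3 (0.88) and Adgrb1 (0.81). In the 4 PN-like states tested apart none was called, beside 0% to 0.0109% of all genes, so the lack of a call there says little. Medians were 0.08 to 0.18 in the states against 0.32 in the class. The shares of these states moved with genotype as given above for progenitors, and their part in the calls was not tested. At E18.5 none of 11 was called in PN-like cells, and the effect on Adgrb2 differed between the stages by -1.05 (FDR 0.0263). In the other named classes and all kept cells no partner was called at E14.5.

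A second list held 28 other synaptic organizers, such as neuroligins, LRRTMs, neuronal pentraxins and calsyntenins. In PN-like cells 16 of 21 tested were called higher at E18.5 than at E14.5 and 1 lower (median log2 change 1.31), beside 63.8% of all genes called and 32.5% higher. Among them were Lgi1 (4.26) and Nptxr (2.35), while Nptx2 fell (-2.80). The list also holds Syt1 (1.97), which encodes the calcium sensor of synaptic vesicles and is not an organizer. From E18.5 to P5, 11 of 22 were called higher and 3 lower, beside 64.5% of all genes called and 32.6% called lower, led by Cadm2 (1.94), Clstn3 (1.93), Nptxr (1.56) and Lgi1 (1.53). In granule lineage-like cells 11 of 21 were called higher and 2 lower, beside 45.1% of all genes, with Lrrtm3 (1.65), Lrrtm4 (1.59), Lrrtm2 (1.28) and Gpc4 (1.24) leading. Between genotypes 1 of 20 was called in E14.5 PN-like cells (Ptprd, 0.41), beside 8.89% of all genes, and none of 20 at E18.5.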

How the data were processed

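Single-cell 3′ RNA-seq (10x Genomics v3.1) was carried out on sorted Atoh1-lineage cells of 14 mouse libraries. The authors aligned reads to mm10 with an added WPRE sequence using Cell Ranger, and deposited filtered matrices of UMI counts per gene and cell. The file headers name version 3.1.0 for replicates 1 and 2 of the E14.5 controls and 5.0.1 for the other 12 libraries. The study's methods name default settings for Cell Ranger, known to count sense-strand reads, and strand is not named otherwise.

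Cells with at least 1000 genes and under 5% mitochondrial UMIs were kept, and the 7.5% with the highest Scrublet score in each library were removed. Each stage was clustered with scanpy 1.11.5 (2000 variable genes, 30 components, Leiden resolution 1.0) without the members and partner genes. Clusters were named from the markers of each type, with cut-offs set after cluster means were seen. The members and lists were chosen with earlier results of these data known. Named genes are all 7 members, up to 4 called genes of each list with the largest change, and for each member the 3 genes with the most similar pattern over clusters. Values of some genes that this rule names are not reported here. UMIs were summed per library and class (at least 10 cells in each library) and tested with edgeR 4.0.16 (quasi-likelihood, TMM, Benjamini-Hochberg) in R 4.3.3, for genes detected in 10% or more of cells of either group. The WPRE row was left out of tests.

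The protocol in the labels gives each mutant embryo a littermate control, and a shared replicate number was taken to mark the litter. The deviations of same-numbered control and mutant libraries from their group means correlated at 0.348 to 0.925 in PN-like, granule lineage-like and all kept cells, so the litter was used as a block in an alternative fit. Other alternatives were median-of-ratios size factors, DESeq2 1.42.0, no low-value filter, a mitochondrial limit of 10%, no doublet removal, Leiden resolution 2.0, Cell Ranger 5.0.1 libraries alone and leaving out each replicate. Dividing and non-dividing granule lineage-like cells were tested apart after the data had been seen. The scripts were tested on simulated counts. Each embryonic library was 1 embryo, and p-values measure the spread between libraries.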

Additional observations from a re-analysis of the deposited data

Results flagged for a closer look

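The genotype effects on Cbln1 and Cbln4 in all kept cells differed between E14.5 and E18.5 by the interaction test of edgeR with the litter as a block. The effect at E18.5 minus that at E14.5 was 0.5316 on the log2 scale for Cbln1 (FDR 0.0247) and 0.505 for Cbln4 (FDR 0.0249). That fit called 14.8% of all genes, 6.22% of them with a higher effect at E18.5 as a share of all genes tested. Cbln4 passed the filter through E14.5 only. Its E18.5 means of 8.64 CPM in controls and 8.98 CPM in Atoh1S193A/- lay inside the microglia-like interval of 0.071 to 15.6 CPM. Without the block the differences were 0.52 (FDR 0.531) and 0.50 (FDR 0.827), so neither passed the threshold there. Cbln1 in all kept cells was lower in Atoh1S193A/- in 3 of 3 litters at E14.5. In the E14.5 litters of replicates 1 and 2 the control was processed with Cell Ranger 3.1.0 and the mutant with 5.0.1. All E18.5 libraries were processed with 5.0.1. Version and the difference in genotype effect cannot be told apart in those litters. The same stages differ in which cells make up each library, and the part of that makeup was not tested.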

How the results depend on the processing

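Without the litter block 0 of 38 member levels were called between genotypes at E14.5, 0 of 25 at E18.5, and 0 of 14 interactions. With the replicate block 5, 1 and 2 were called, each named above with its value, and the block changed no other call in these sets. That fit called 17.8% of all genes in all kept cells and 24.9% in PN-like cells at E14.5. It called 0.654% of genes in PN-like cells at E18.5 and 14.8% for the interaction in all kept cells. Among E14.5 clusters outside the named classes the block added 1 call, where 0.089% of genes were called. DESeq2 called 1 at E14.5, beside 2.43% of genes in all kept cells. Leaving out 1 replicate at a time gave 0 to 1 call at E14.5, and 0 in each case at E18.5 and for the interaction. Between E14.5 and E18.5, 12 of 14 levels were called, among them levels that passed the filter through 1 stage only, and 9 to 14 under the alternatives, and between E18.5 and P5 3 of 5, and 2 to 3. Between E14.5 and E18.5, 51.5% of all genes were called in all kept cells, 63.8% in PN-like cells and 45.1% in granule lineage-like cells. Between E18.5 and P5 64.5% were called, so calls between stages are common. One direction turned: Cbln2 in granule lineage-like cells, -0.78 between E14.5 and E18.5, was 0.8813 with a mitochondrial limit of 10%. The cause was not tested. The call of C1ql1 in PN-like cells between E14.5 and E18.5 was lost with no filter (2.15), Cbln1 there lost its call under 9 alternatives, Cbln4 in all kept cells gained one without replicate 2 of the E14.5 controls (-0.69), and Cbln2 in PN-like cells gained one with no doublets removed (-2.64).

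Of 45 control levels of at least 20 CPM, 7 moved by over 1.5 times with a mitochondrial limit of 10%, 5 with no doublets removed and 4 at resolution 2.0. Cbln1 in E14.5 caudal hindbrain neuron-like cells went from 181 to 67.1 CPM with the higher mitochondrial limit, and with no doublets removed C1ql3 in E14.5 PN-like cells went from 27.1 to 42.4 CPM and Cbln1 in E18.5 PN-like cells from 27.1 to 50.8 CPM. These settings cluster and name the cells again, so clusters outside the named classes could not be matched in them. Levels under about 8.41 to 9.29 CPM in microglia-like cells of the embryo lay under 3 counts.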

Other observations

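Over the 95 clusters of the 3 stages, the pattern of each member was set against 13344 genes by Pearson's r of log2(CPM + 1), as a description with no p, since clusters share libraries and depth. C1ql4 was closest to the homeobox genes Evx2 (r = 0.865) and Evx1 (0.831) and the noncoding Evx1os (0.824), which are known from interneurons of the hindbrain and spinal cord. Cbln1 was closest to Gm2694 (0.939), the gene that overlaps it on the other strand, then to Mirt1 (0.801) and Neurod1 (0.779), a factor of granule cell differentiation. Cbln4 was closest to Sh2d5 (0.82), Spryd3 (0.803) and Rell2 (0.801), and Cbln2 to Dpf1 (0.72), Zfp941 (0.694) and Vstm2l (0.687).

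C1ql3 was closest to Sorcs3 (0.668), Ecel1 (0.667) and Myh7 (0.663), and C1ql2 to Stk32a (0.666), Tmem255b (0.611) and Dmrtb1 (0.583). C1ql1 was closest to C1ql2 (0.55), followed by Pcdh20 (0.513) and Tmem237 (0.504). Among the members themselves, C1ql1 with C1ql2 was the highest pair and C1ql4 with Cbln2 the next (0.529).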
